A study of Mus musculus with 4 samples.

Results

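The translesion synthesis genes examined here were Polh, Poli, Polk, Polq, Rev1, Rev3l, Mad2l2 and Rad18, which encode DNA polymerases that copy damaged templates, together with a partner subunit and the ubiquitin ligase that calls them to the fork. The genes were taken by name, and every non-control probe whose gene name was 1 of the 8 was kept, which gave 11 probes of the 39429 on the array and 8 of its 30898 named genes. Polk, Mad2l2 and Rad18 had 2 probes each and the other 5 genes had 1. Where a gene had 2, the probe that was brighter over the 4 arrays stood for it, and the other one is given beside it.

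Gene expression was compared between mouse mammary tumour cells labelled as with or without an intact Pak1 gene, which encodes a serine and threonine kinase of the p21-activated family that acts below Rac and Cdc42. Both groups were derived from tumours of MMTV-Neu mice, whose transgene expresses the Neu oncogene (Her2, gene Erbb2) from the mouse mammary tumour virus promoter, mainly in mammary epithelium. The groups were labelled Pak1 -/- (2 arrays) and Pak1 +/+ (2 arrays), and the series text states duplicates with cells of 2 tumours per group. All cells were kept in low calcium medium with 5% horse serum, deprived of serum for 3 h and given EGF for 15 min before their total RNA was labelled with Cy3 and hybridised to a single-colour Agilent array of 60-base probes. No label gives the age of the mice, their strain or the number of passages in culture. Nothing more is known here of how the 2 samples of a group differ, so the p-values measure only the spread between these samples.

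Cells meet bases that the replicative polymerases cannot copy, and translesion synthesis lets them pass such bases without repairing them first. Rad18, with the conjugating enzymes Ube2a and Ube2b (the Rad6 proteins), puts ubiquitin on the sliding clamp Pcna, and the marked clamp binds the Y-family enzymes Polh (polymerase eta), Poli (iota), Polk (kappa) and Rev1. These insert a base opposite the lesion, and polymerase zeta, built from Rev3l, Mad2l2 (Rev7) and the shared subunits Pold2 and Pold3, extends from it. Polq (theta), an A-family polymerase, can also pass lesions and is best known for joining broken ends through short homologies.

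The values are normalized log2 intensities, in which 1 unit is a 2-fold difference in brightness. Probe brightness depends on the probe, so levels are compared between arrays and not between probes. The median spot intensity was 322 to 331 on the 4 arrays, over a median local background of 39.0 to 42.0, and 62.2% to 70.4% of probes were well above background. All 11 probes of the 8 genes were well above background on all 4 arrays and none was saturated. Replicates correlated with r = 0.997 in each group and arrays of different groups with r = 0.954 to 0.959, across probes, which are not independent replicates. The 4 arrays lay on 1 slide, those labelled Pak1 -/- at positions 1 and 2 and those labelled Pak1 +/+ at positions 3 and 4, so position and genotype cannot be told apart. The only probe named Pak1 read 12.21 and 12.25 in the arrays labelled Pak1 -/- and 12.04 and 12.04 in those labelled Pak1 +/+, a difference of 0.19 (SE 0.07, limma adjusted p = 0.070), so it was not lower in the arrays labelled Pak1 -/-. Under cyclic loess it was called higher there (0.27, adjusted p = 0.027). Whether the deletion removes the stretch this probe reads was not tested. All directions below follow the labels.

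The sequences the results turn on come first. Both Polk probes are shown because they gave similar group differences from separate places in the gene. The Rad18 probe is shown because it gave a larger difference than the other Rad18 probe. The capitals mark a TAA stop codon that closes the frame open over the rest of the probe, a feature at the end of 6.28% of all probes. Each is written 5′ to 3′ as the array files give it, with its mm9 position from the same files. The Rad18 position spans 4907 bases, far more than the 60 of the probe.
Polk brighter probe (A_55_P2000533, chr13:97251653-97251712, minus strand): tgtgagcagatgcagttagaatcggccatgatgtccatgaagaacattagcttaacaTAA
Polk other probe (A_55_P2205690, chr13:97256835-97256894, minus strand): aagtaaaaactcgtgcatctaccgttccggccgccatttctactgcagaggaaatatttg
Rad18 other probe (A_65_P05396, chr6:112594696-112599602, minus strand): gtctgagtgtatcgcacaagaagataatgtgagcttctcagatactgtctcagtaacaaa

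Promoter windows of 300 bases ran from 250 before the start of a RefSeq transcript to 50 after it, on GRCm38.p6. They were at hand for 6 of the 8 genes, in 9 windows. None was at hand for Poli or Rev3l. Those shown are of Polh, which read lower in the arrays labelled Pak1 -/-, of Polk, which read higher, and of Polq, which did not pass the test. Capitals mark GGGCGG or CCGCCC (the GC box) in Polh and Polk, and TTTGAA or TTCAAA (the cell cycle homology element, CHR) in Polq.
Polh (chr17:46202592-46202891, minus strand): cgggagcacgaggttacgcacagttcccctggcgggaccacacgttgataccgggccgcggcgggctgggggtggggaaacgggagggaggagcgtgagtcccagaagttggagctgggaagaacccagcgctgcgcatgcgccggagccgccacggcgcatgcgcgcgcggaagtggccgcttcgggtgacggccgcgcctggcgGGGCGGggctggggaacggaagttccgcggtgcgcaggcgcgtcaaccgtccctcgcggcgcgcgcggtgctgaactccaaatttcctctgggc
Polk (chr13:96542530-96542829, minus strand): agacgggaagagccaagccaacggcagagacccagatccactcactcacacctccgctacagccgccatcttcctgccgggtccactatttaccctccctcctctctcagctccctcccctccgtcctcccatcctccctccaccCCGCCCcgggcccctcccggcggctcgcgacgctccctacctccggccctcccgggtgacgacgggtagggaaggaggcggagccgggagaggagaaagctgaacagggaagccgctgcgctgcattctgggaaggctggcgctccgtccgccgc
Polq (chr16:37011536-37011835, plus strand): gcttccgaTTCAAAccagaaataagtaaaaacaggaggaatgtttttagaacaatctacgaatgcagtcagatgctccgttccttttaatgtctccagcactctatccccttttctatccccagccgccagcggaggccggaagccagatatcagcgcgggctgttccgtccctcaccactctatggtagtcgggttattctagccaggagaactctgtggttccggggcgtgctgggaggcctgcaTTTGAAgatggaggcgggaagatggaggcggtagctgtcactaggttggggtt

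Several motifs were searched on both strands of the windows. The GC box was found for 4 of the 6 genes (Polh, Polk, Rev1 and Mad2l2), and for 38.2% of the 27025 genes with a window. The CHR letters were found for 1 of 6, Polq, which held 2 copies, and for 20.2% of all genes. CCAAT was found for Mad2l2 alone of the 6, in its second window, and for 41.1% of all genes. TTTGGCGC and TTTCGCGC, which E2F factors bind, were found in none of the 6 and in 0.929% of all genes. Polk has a second window (chr13:96519138-96519437) with no GC box. Polh and the Polk window shown, of genes whose differences had opposite signs, both held it. A match only describes the letters of a window.

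Of the 8 genes, Poli, Polh and Rev3l were lower in the arrays labelled Pak1 -/-, Polk was higher, and Polq, Rev1, Mad2l2 and Rad18 did not pass the test (limma, Benjamini-Hochberg adjusted over 27229 probes, threshold 0.05). That is 4 of 8 called, where 51.0% of the 21285 genes tested by their brightest probe were called. The 3 lower stand beside 27.8% of all genes called lower, and the 1 higher beside 23.1% called higher. The share called was close to that of all genes, so the count by itself sets the translesion genes apart from nothing. In 6 of 8 genes the 2 groups did not overlap, beside 77.5% of all genes. The median difference of the 8 genes was -0.13, with all genes at a median of -0.05 and quartiles of -0.35 and 0.28. Under cyclic loess the median of the 8 was -0.05. In bulk samples like these, fewer cells of a kind and less RNA per cell cannot be told apart.

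**Figure D1:**
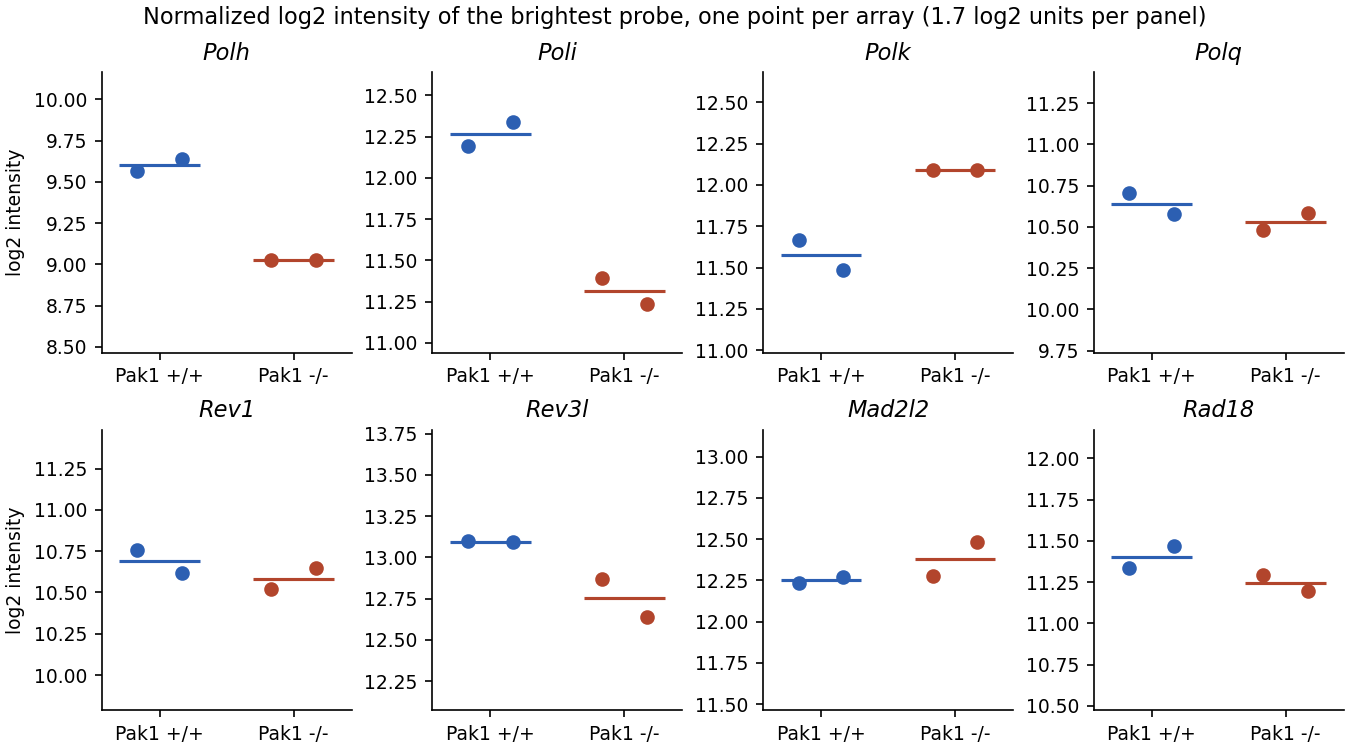
Normalized log2 intensity of the brighter probe of each of the 8 genes, with 1 point per array, a line at the mean of each group, and the same height of 1.7 log2 units in every panel. Poli, Polh and Rev3l sit lower in the arrays labelled Pak1 -/-, Polk sits higher, and only the Polq and Rev1 groups overlap.

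Poli had the largest difference of the 8. Poli is the most error-prone of the Y-family inserters and pairs bases by a geometry of its own. Its probe (A_55_P2053497, mm9 chr18:70668409-70668468, minus strand) read 11.39 and 11.24 in the arrays labelled Pak1 -/- and 12.19 and 12.34 in those labelled Pak1 +/+. Both labelled -/- arrays lay below both +/+ arrays, and the replicates lay within 0.158 of each other. The difference was -0.95 (SE 0.10, 95% interval -1.20 to -0.69, adjusted p = 0.0019), so the geometric mean of the arrays labelled Pak1 -/- was 51.8% of that of the +/+ arrays. The raw spot intensities were 2605 and 2486 against 4822 and 4982, so the gap was there before normalization. Among all genes tested, 6.55% had a difference as low.

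Polh, the eta polymerase that copies across ultraviolet-linked thymines correctly and is lost in the variant form of xeroderma pigmentosum, was also lower. Its probe (A_51_P370755, mm9 chr17:46309069-46309128, minus strand) read 9.03 and 9.03 in the arrays labelled Pak1 -/- and 9.57 and 9.64 in the +/+ arrays. The groups were well apart, with replicates within 0.071 of each other. The difference was -0.57 (SE 0.07, interval -0.76 to -0.39, adjusted p = 0.0032), or 67.2% of the +/+ level. In raw intensity the spot gave 508.5 and 517.3 against 745.3 and 749.3. Differences as low were found for 15.0% of genes.

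Polk ran the other way. Polk inserts past bulky adducts on guanine and can also extend from mispaired ends. The brighter of its 2 probes, whose sequence closes on the stop codon above, read 12.09 and 12.09 in the arrays labelled Pak1 -/- and 11.67 and 11.48 in the +/+ arrays. Both labelled -/- arrays were higher than both +/+ arrays, and the -/- pair lay closer together than the +/+ pair. The difference was 0.52 (SE 0.09, interval 0.28 to 0.75, adjusted p = 0.0092), a level 143% of that in the +/+ arrays.

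The other Polk probe, which lies upstream of it in the gene, read 9.63 and 9.55 against 9.09 and 9.13. Its groups were apart too, and its difference of 0.49 (SE 0.07, adjusted p = 0.0057) lay within the interval of the first. Polk was thus the only 1 of the 8 genes called higher, and both of its probes were called. Among all genes, 16.1% had a difference as high as that of the brighter probe.

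**Figure D2:**
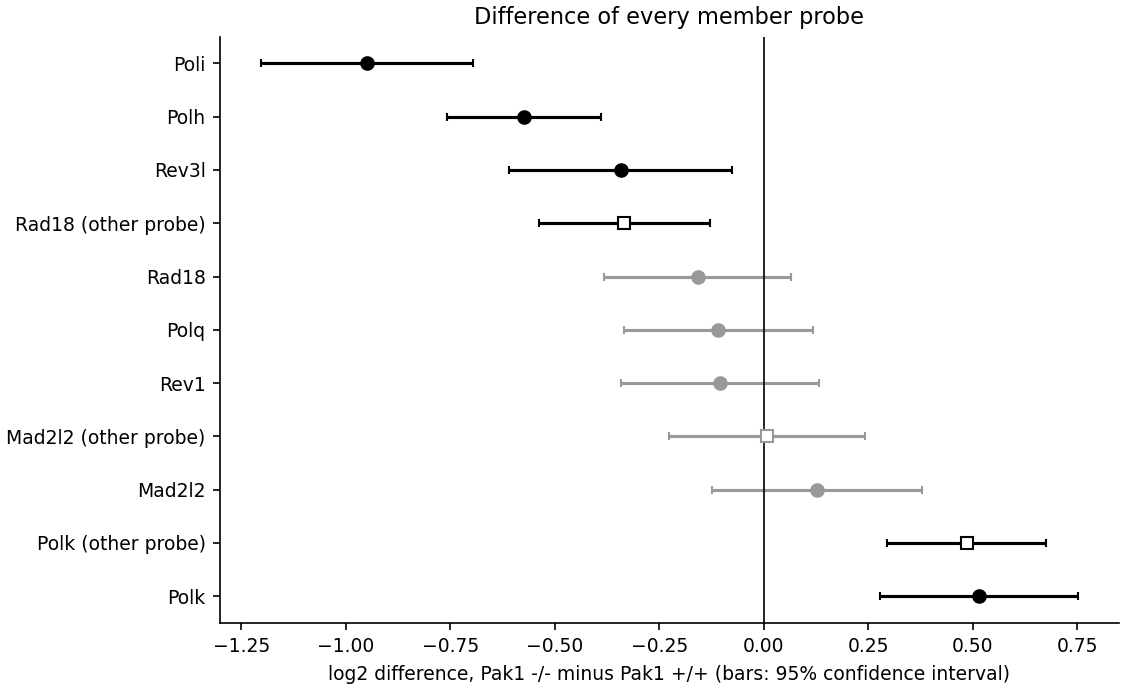
Log2 difference, arrays labelled Pak1 -/- minus arrays labelled Pak1 +/+, for all 11 probes, with bars for the 95% confidence interval. Circles are the brighter probe of a gene and open squares the other probe, in black where the adjusted p was under 0.05 and in grey otherwise. The intervals of Poli, Polh and Rev3l lie below 0, those of both Polk probes above it, and those of Polq, Rev1 and both Mad2l2 probes span it.

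Rev1, which inserts cytosine and holds the other Y-family enzymes and polymerase zeta together, showed no detectable difference. Its probe (A_51_P249594, placed at mm9 chr1:38110029-38110505, minus strand, a span of 477 bases) read 10.52 and 10.65 in the arrays labelled Pak1 -/- and 10.76 and 10.62 in the +/+ arrays. The second -/- array lay above the second +/+ array, so the groups overlapped. The difference was -0.11 (SE 0.09, interval -0.34 to 0.13, adjusted p = 0.38). The interval leaves room for a change of either sign.

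Rev3l is the catalytic subunit of polymerase zeta, and its loss is lethal to mouse embryos. Its probe (A_51_P271665, mm9 chr10:39594632-39594691, plus strand) read 12.87 and 12.64 in the arrays labelled Pak1 -/- and 13.10 and 13.09 in the +/+ arrays. The +/+ arrays were almost equal, the -/- arrays were 0.233 apart, and the groups did not overlap. The difference was -0.34 (SE 0.10, interval -0.61 to -0.08, adjusted p = 0.044), or 78.9% of the +/+ level, and 25.8% of genes had a difference as low. This call stood close to the threshold. It was lost in 8 of 13 other ways of treating the data, with adjusted p up to 0.134, among them leaving out -/- replicate 2 (-0.23, adjusted p = 0.091), +/+ replicate 1 (-0.34, 0.134) or +/+ replicate 2 (-0.34, 0.131). Without Rev3l, 2 of the 8 genes were lower.

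Mad2l2, the small subunit that joins Rev3l to Rev1 and also works in the shieldin complex at broken ends, did not pass the test. Its brighter probe (A_55_P1966863, mm9 chr4:147519745-147519804, plus strand) holds the polyadenylation signal AATAAA, as do 12.6% of all probes. It read 12.27 and 12.48 in the arrays labelled Pak1 -/- and 12.23 and 12.27 in the +/+ arrays. The lower -/- array was barely above the higher +/+ array, and the difference was 0.13 (SE 0.10, interval -0.12 to 0.38, adjusted p = 0.32).

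The other Mad2l2 probe (A_55_P2402307, mm9 chr4:147514068-147514127) was annotated to an Ensembl transcript and was the only 1 of the 11 with no RefSeq match. It read 7.32 and 7.23 against 7.34 and 7.18, near the dim end of the range, at 3.40 to 3.76 times the local background. It carries TTTATT, the polyadenylation signal read from the other strand. Its groups overlapped, with a difference of 0.0077 (SE 0.09, adjusted p = 0.95), and the sign of that value changed in 5 of 12 other settings.

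Polq read 10.48 and 10.59 in the arrays labelled Pak1 -/- and 10.70 and 10.58 in the +/+ arrays (A_55_P2111478, mm9 chr16:37095392-37095451, plus strand). The higher -/- array lay above the lower +/+ array, so the groups overlapped. The difference was -0.11 (SE 0.09, interval -0.33 to 0.12, adjusted p = 0.34). Differences as low were found for 44.5% of genes, so Polq lay near the middle of all genes tested.

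Rad18 gave different answers from its 2 probes. The brighter probe (A_55_P1975021, mm9 chr6:112570622-112570681, minus strand) read 11.29 and 11.20 in the arrays labelled Pak1 -/- and 11.34 and 11.47 in the +/+ arrays. The groups did not overlap but lay close, and the difference of -0.16 (SE 0.08, interval -0.38 to 0.07, adjusted p = 0.18) did not pass the test. This probe holds TTTATT near its start, a feature of 4.03% of all probes.

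The other Rad18 probe, shown above, read 11.01 and 11.10 against 11.35 and 11.43. All its -/- values lay below its +/+ values, and the difference was -0.33 (SE 0.08, adjusted p = 0.022). That call was lost in 4 of 12 other settings, which included leaving out -/- replicate 1 (-0.29, adjusted p = 0.077), +/+ replicate 1 (-0.37, 0.065) or +/+ replicate 2 (-0.29, 0.114). The mean over both Rad18 probes differed by -0.25 (adjusted p = 0.047). Rad18 is therefore counted here as not past the test, by its brighter probe, with a lower value from the other.

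**Figure D3:**
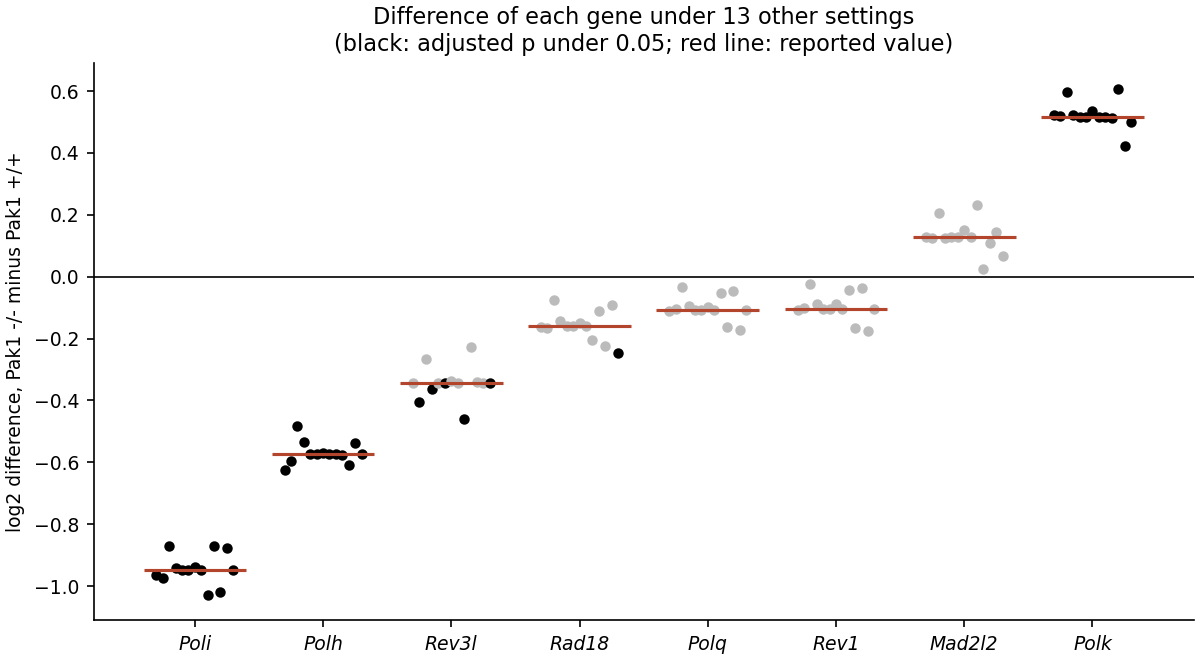
Log2 difference of each of the 8 genes by its brighter probe under 13 other settings (1 point each, 1 of them the mean over a gene's probes), black where the adjusted p was under 0.05 and grey otherwise, with a red line at the reported value. Poli, Polh and Polk were called under all 13 settings, Rev3l under 5, Rad18 under 1, and Polq, Rev1 and Mad2l2 under none.

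The calls of Poli, Polh and Polk were kept in all 13 other settings. These changed the background correction, normalization, filter, probe rule, arrays included or source of the values, or added a replicate block. Poli ranged from -1.03 to -0.87, Polh from -0.62 to -0.48 and Polk from 0.42 to 0.61. The highest adjusted p was 0.014 for Poli, 0.022 for Polh and 0.049 for Polk. Polq, Rev1 and Mad2l2 passed in none of the 13, where their lowest adjusted p was 0.25, 0.26 and 0.097.

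The enzymes around Rad18 and the clamp were read from a list of 19 genes of Pcna ubiquitination and lesion bypass. All 19 were tested, 9 were lower, 2 were higher and 8 did not pass, with a median of -0.24. The median of this list (PCNA ubiquitination and bypass) was -0.39 with the processed signal scaled to its 75th percentile, -0.37 without +/+ replicate 1 and -0.16 under cyclic loess. The lower genes included Atad5, which unloads the clamp (-1.13, SE 0.08), Dtl, the substrate receptor of an E3 ligase that acts on clamp-bound proteins (-0.94, SE 0.07), Zranb3, a translocase that remodels forks (-0.71, SE 0.07), and Primpol, the primase and polymerase that restarts past a lesion (-0.71, SE 0.08; named after its value was seen). Hltf, a ligase that extends the ubiquitin chain on the clamp, was higher by 0.61 (SE 0.07, adjusted p = 0.0023), with 13.46 and 13.45 in the arrays labelled Pak1 -/- against 12.86 and 12.83. It thus moved in the direction of Polk. Ube2v2, which builds such chains with Ube2n, was called higher by its brightest probe (0.31, adjusted p = 0.029), but another of its probes was lower (-0.34, adjusted p = 0.019) and the call was lost in 7 of 13 settings, among them without -/- replicate 2 (adjusted p = 0.088), +/+ replicate 1 (0.137) or +/+ replicate 2 (0.086).

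Pcna itself read 15.30 and 15.33 in the arrays labelled Pak1 -/- and 16.22 and 16.15 in the +/+ arrays, a difference of -0.87 (SE 0.07, adjusted p = 0.0011). The groups were far apart beside their spread. Ube2a was lower by its brightest probe (-0.37, SE 0.07, adjusted p = 0.015), though not without -/- replicate 1 (adjusted p = 0.051), +/+ replicate 1 (0.067) or +/+ replicate 2 (0.073). The other Ube2a probe was lower by more (-0.65, adjusted p = 0.0034). Ube2b, a close relative of Ube2a, was at -0.14 (adjusted p = 0.15) by its brightest probe. Its other probes were at -0.16 (adjusted p = 0.21) and -0.27 (0.033), so only the last was called lower. Usp1 and Wdr48, the enzyme and its cofactor that take the ubiquitin off the clamp again, were at -0.23 each (adjusted p = 0.066 and 0.063) and did not pass.

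The subunits that polymerase zeta shares with polymerase delta had larger differences than Rev3l. Pold2 read 10.58 and 10.85 in the arrays labelled Pak1 -/- and 12.30 and 12.34 in the +/+ arrays, a difference of -1.60 (SE 0.11, adjusted p = 0.00073). Pold3 read 12.97 and 12.98 against 13.96 and 13.83, a difference of -0.92 (SE 0.08, adjusted p = 0.0012). With Pold1 (-1.04) and Pold4 (-1.07), all 4 subunits of the delta enzyme were called lower, with a median of -1.06. The difference between these values and that of Rev3l was not tested.

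Among 19 DNA polymerase and primase genes outside the translesion set, the 4 delta subunits included, 13 were lower, 2 higher and 4 not past the test, with a median of -1.04. Pole2 (-1.54, SE 0.09), a subunit of the leading-strand enzyme, Prim1 (-1.33, SE 0.07), the primase, and Poln (-1.34, SE 0.07), an A-family relative of Polq, were the lowest after Pold2. Polb, the short-patch repair polymerase, was higher by 0.68 (SE 0.07, adjusted p = 0.0020), with 12.65 and 12.63 against 11.99 and 11.92. Pole3 was called higher (0.28, adjusted p = 0.040), a call lost when any 1 of the 4 arrays was left out (adjusted p = 0.072 to 0.186).

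Around Polq, 12 other genes of theta-mediated end joining, a list shortened by 1 gene after the fit, were tested, of which 9 were lower, 2 higher and 1 not past the test, with a median of -0.53. Lig1 (-0.88, SE 0.07), the ligase that seals Okazaki fragments, and Helq (-0.73, SE 0.08), a helicase related to the one within Polq, were the lowest. Lig3, a ligase of this route, was higher by 0.71 (SE 0.09, adjusted p = 0.0037), and so was Ercc4, a flap nuclease subunit, by 0.73 (SE 0.07, adjusted p = 0.0016). A second Lig3 probe was higher by less (0.34, adjusted p = 0.014). Xrcc1, which holds Lig3, was at -0.07 and did not pass.

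**Figure D4:**
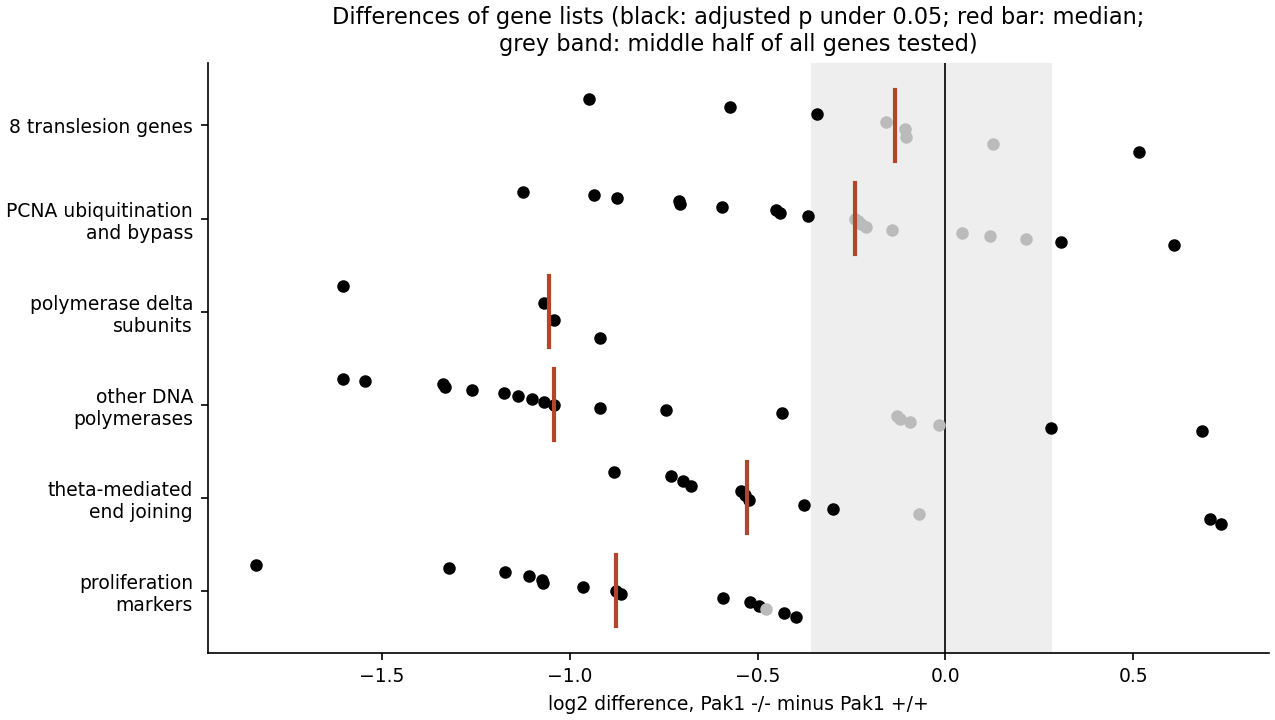
Log2 difference, arrays labelled Pak1 -/- minus arrays labelled Pak1 +/+, of each gene in the translesion set and in 5 lists around it, black where the adjusted p was under 0.05 and grey otherwise, with a red bar at the median and a grey band from the lower to the upper quartile of all genes tested (-0.35 to 0.28). The 4 delta subunits appear in 2 of the lists, and the medians run from -0.13 for the 8 translesion genes to -1.06 for the delta subunits.

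Markers of dividing cells moved with these values. Of 16 proliferation markers 15 were tested, Aurkb being well above background on no array, and 14 were lower and none higher, with a median of -0.88. Rrm2 (-1.84), Foxm1 (-1.32), Tyms (-1.17) and Mcm2 (-1.11) had the largest differences, and without +/+ replicate 1 the count of lower markers was 9. Their summed level, on the log2 scale, was 18.13 and 18.28 in the arrays labelled Pak1 -/- and 19.19 and 19.14 in the +/+ arrays. Poli, Polh and Rev3l thus ran in the direction of these markers and Polk against it. The part of dividing cells in the differences of the translesion genes was not tested.

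Markers of other cell types were read in the same way. Of the luminal markers, 5 of 6 were well above background on all 4 arrays and Krt19 on 3, and of 6 tested 1 was lower (Krt7, -1.10), 3 higher (Cdh1, 1.19, Krt8, 0.57, and Krt18, 0.27) and 2 not past the test. The Krt18 call was lost when any 1 of the 4 arrays was left out (adjusted p = 0.059 to 0.138). Scaling the processed signal to its 75th percentile turned the balance to 2 lower and 1 higher, with Krt8 at 0.27 (adjusted p = 0.060) and Krt18 at 0.037, and the same scaling of normexp values put Krt18 at 0.041. The summed log2 level of the luminal markers was 19.97 to 19.98 in the arrays labelled Pak1 -/- and 19.80 to 19.81 in the +/+ arrays. Most of that sum was Krt18 and Krt8. Krt18 read 18.88 and 18.85 against 18.61 and 18.57, and Krt8 18.69 and 18.68 against 18.09 and 18.14. All 5 basal markers were higher, led by Krt17 (4.92), Krt14 (2.83), Acta2 (1.69) and Krt5 (0.50). Their count was 3 without -/- replicate 1, where Krt5 had an adjusted p of 0.115, and Krt5 also lost its call without +/+ replicate 1 (adjusted p = 0.101) and with the processed signal scaled to its 75th percentile (0.058). The summed log2 level of the basal markers was 16.40 to 16.53 in the arrays labelled Pak1 -/- and 14.20 to 14.24 in the +/+ arrays.

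Of 8 fibroblast markers 3 were tested and Col1a1 was higher (1.12), while the defining Col3a1, Pdgfrb, Dcn and Lum were well above background on no array. The summed log2 level of all 8, untested ones included, was 10.43 to 10.61 in the arrays labelled Pak1 -/- and 10.24 to 10.29 in the +/+ arrays. Within it Col1a1 read 9.31 and 8.88 against 8.03 and 7.93. Of 7 leukocyte markers 6 were tested, Adgre1 (-1.05) and Ptprc (-0.45) were lower and none was higher, and the summed level was 15.67 to 16.19 against 15.41 to 15.55. Most of that sum was Itgam, which read 16.07 and 15.51 against 15.39 and 15.20 and did not pass (0.49, adjusted p = 0.110), with its other probes at 0.56 (adjusted p = 0.077) and -0.20 (0.21). In place of none, 1 leukocyte marker was called higher without -/- replicate 2 and under cyclic loess. Of 4 endothelial markers 3 were tested and none was called in either direction, and the sums were 13.28 to 13.33 against 13.13 to 13.40. A second Kdr probe, well above background on 2 of the 4 arrays, was called higher (adjusted p = 0.00046), and 1 endothelial marker was higher when probes of a gene were averaged. The part of these cell types in the differences of the translesion genes was not tested.

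The genes whose centred values over the 4 arrays lay nearest to those of Poli were Col8a1, Lrrc4b and Nt5dc3, at root mean square distances of 0.023, 0.026 and 0.026 log2 units, and 261 genes lay within 0.1. For Polk they were Gmeb1, Tnrc6b and Ear2, at 0.014, 0.019 and 0.021, and 963 genes lay within 0.1. With 4 arrays, many genes share a pattern this closely.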

How the data were processed

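Total RNA of 4 samples was measured on single-colour Agilent arrays. Each scanner file, as deposited, gives the linear intensity of every spot from Feature Extraction, version 9.5.3.1 per the file headers (9.5 in the submitters' processing notes), with no normalization across arrays. A second source was the authors' log2 table, deposited with them and by their methods normexp corrected and quantile normalized, with values in 24008 of 39485 rows, all 11 probes included. It tracked the values computed here (lowest r across probes 0.9998, SD of the difference 0.0755), and the median of every array in it was 10.37. Its offset and its rule for leaving rows empty are not given in the sources used here.

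Values were computed from the mean spot intensity and median local background with limma 3.58.1 in R 4.3.3, by normexp with an offset of 50, log2 and quantile normalization. Control spots and outlier flags were left out, and spots of a probe were averaged. The offset lessens the differences of dim probes. Probes well above background on at least 2 arrays were kept (27229, 69.1%). Groups were compared with lmFit and eBayes (two-sided, genotype only, all 4 arrays), with 2 residual degrees of freedom and a prior of 2.62, and 14132 probes (51.9%) passed an adjusted p of 0.05. An exact permutation test of 2 against 2 cannot go below 0.333, so none was run. The number of arrays limits the precision. The script was tested on simulated data.

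Gene names were those given with the arrays, with older symbols of listed genes replaced by current ones. RefSeq transcripts were matched for 26055 of the 32334 probes that name one, and for 10 of the 11, but did not set the names. Exon and UTR annotation was not used here. Named genes were the 8 with every probe, Pak1, 7 partners whatever their result (Pcna, Ube2a, Ube2b, Usp1, Wdr48, Pold2 and Pold3), up to 4 genes of each list with the largest differences among those called, and for Poli and Polk the 3 genes nearest in pattern. Primpol, Xrcc1, Aurkb and other genes outside this rule were named after their values were seen. The members and lists were chosen with earlier results of these data known. After the fit, 1 gene was left out of the end joining list, its counts and its median, for a reason that does not rest on its value, and is not reported here. Alternatives changed the offset, normalization, filter, probe rule, threshold, replicate block, arrays included and source of values.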

Additional observations from a re-analysis of the deposited data

How the results depend on the processing

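Rev3l was no longer past the threshold with no offset (-0.34, adjusted p = 0.058), cyclic loess (-0.27, 0.083), no filter (-0.34, 0.075), the deposited log2 values (-0.34, 0.054) and the replicate block (-0.34, 0.050), and ranged from -0.46 to -0.23 when 1 array was left out. Rad18 passed with the mean over its probes (-0.25, 0.047). The second Mad2l2 probe changed sign under scaling to the 75th percentile of the processed signal (-0.12) or of normexp values (-0.020), and from the deposited values (-0.017), and ranged from -0.071 to 0.087 with 1 array left out. Xrcc1 was at 0.040 under cyclic loess. The other DNA polymerases called higher numbered 1 in place of 2 under all alternatives but cyclic loess and the filter on all 4 arrays. The clamp list had 1 gene higher in place of 2 under both 75th percentile scalings, no filter, an adjusted p of 0.01 and the mean over probes, 4 under cyclic loess, and 1 to 2 with 1 array left out. At an adjusted p of 0.01, 8878 probes and 9 proliferation markers were called, and 10307 to 12164 probes and 9 to 15 markers with 1 array left out. The cause of these changes was not tested.

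Replicates of one number did not deviate together (r = -0.028 across probes), so the replicate block, which gave 13211 probes in place of 14132, is no pairing. With the block 1 leukocyte marker was called higher in place of none. Cyclic loess raised the higher calls from 44.9% to 52.4% of all calls. No scaling moved the median of all probes by over 0.1. The brighter probes of the 8 genes read at least 12.7 times the local background. With 2 arrays per group, the spread behind every test is poorly known, and slide position cannot be told apart from genotype.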
